A study of Homo sapiens with 4 samples.

Results

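The insulin-like growth factor (IGF) axis was followed in RNA-seq libraries of cells labelled HepG2, an established human liver cancer line. Its members here were 10 genes of the 44591 in the deposited tables, taken by matching the gene symbol. They are 5 IGF binding proteins (IGFBP1, IGFBP2, IGFBP3, IGFBP4 and IGFBP6), the ligand IGF2, the receptors IGF1R and IGF2R, and the receptor substrates IRS1 and IRS2. With Caspase-7, which is not a member here, IGFBP3 is a gene on which the study followed up SALIS, the long noncoding RNA listed as LINC01186. The other members belong to the family and pathway of IGFBP3.

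IGFs are secreted peptides that bind IGF1R, a receptor tyrosine kinase, and the signal is carried into the cell by the docking proteins IRS1 and IRS2. IGFBPs hold IGFs outside the cell and limit or prolong their access to the receptor, and some of them, IGFBP3 among them, also act without IGF. IGF2R binds IGF2 and delivers it to lysosomes. The liver is the main source of circulating IGFs and of IGFBP1, whose transcription insulin represses.

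The groups were siNC, a control siRNA, and siLINC01186, an siRNA against SALIS, with 2 libraries in each. All cells were transfected, kept 6 h without serum and then 24 h in medium with 10% serum. The study used 1 siNC throughout but changed the oligo against SALIS between the repeats, and the labels do not name the oligo in each library. A difference between the siLINC01186 libraries therefore cannot be told apart from a difference between oligos. The libraries held 14968958 to 17297245 counts. Replicates of a group differed by more than counting error gives, since the chi-square divided by the genes compared was 20.8 for siNC and 24.0 for siLINC01186. The study calls them biological repeats, while the labels do not say whether they were separate cultures. The study reports a knockdown of SALIS in HepG2 cells from qPCR, a measure apart from the counts here. In replicates 1 and 2, SALIS itself had 15 and 14 counts under siNC, and 12 and 14 counts under siLINC01186. For SALIS the log2 fold change was -0.12 ± 0.53 (SE), and within replicates 1 and 2 the siLINC01186 level stood at 0.938 times siNC (95% exact interval 0.401 to 2.15) and 0.908 times (0.401 to 2.06). A fall below 0.401 of siNC thus lay outside both counting intervals, and a smaller fall was not detectable at this depth. Directions are therefore between libraries as labelled.

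The liver label was checked against 10 hepatocyte markers, and most were at or near 0. Albumin (ALB) had 0 counts in both replicate 1 libraries and 15 and 14 counts in the replicate 2 libraries of siNC and siLINC01186. Apolipoprotein A1 (APOA1) had 0 counts in both replicate 1 libraries and 21 and 20 counts in replicate 2. Transthyretin (TTR) had 0 counts in 3 libraries and 3 in siLINC01186 replicate 2, and alpha-fetoprotein (AFP) had between 2 and 16. A count of 0 allows up to 0.179 CPM in siNC replicate 1 and 0.210 CPM in siLINC01186 replicate 1, for counting error only, where CPM is the count over the normalized library size, scaled alike in all libraries. The liver transcription factor HNF4A had 79 and 83 counts in replicate 1 and 161 and 188 in replicate 2. The summed level of the 10 markers was 4.96 and 6.30 CPM in replicate 1 and 17.8 and 16.0 CPM in replicate 2. These markers thus moved with the replicate number, 0 of the 9 tested were called between the groups, and their part in the results was not tested. Apart from HNF4A they had at most 27 counts per library, so a difference between the groups could hardly be called. Of 10 markers of other cell types, the immune marker CD3E had 0 counts throughout and PTPRC had at most 2. The mesenchymal markers COL1A1, COL1A2, COL3A1 and PDGFRB had between 105 and 790 counts per library. The endothelial markers PECAM1, VWF and CDH5 had between 0 and 37. The sum of these other markers was 104 to 140 CPM, and CD68 alone had 786 to 912 counts per library. Albumin and the apolipoproteins APOA1 and APOB, which define hepatocytes, thus had at most 27 counts in any library, which goes against the label, and the cells are called HepG2 here only as labelled.

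**Figure D1:**
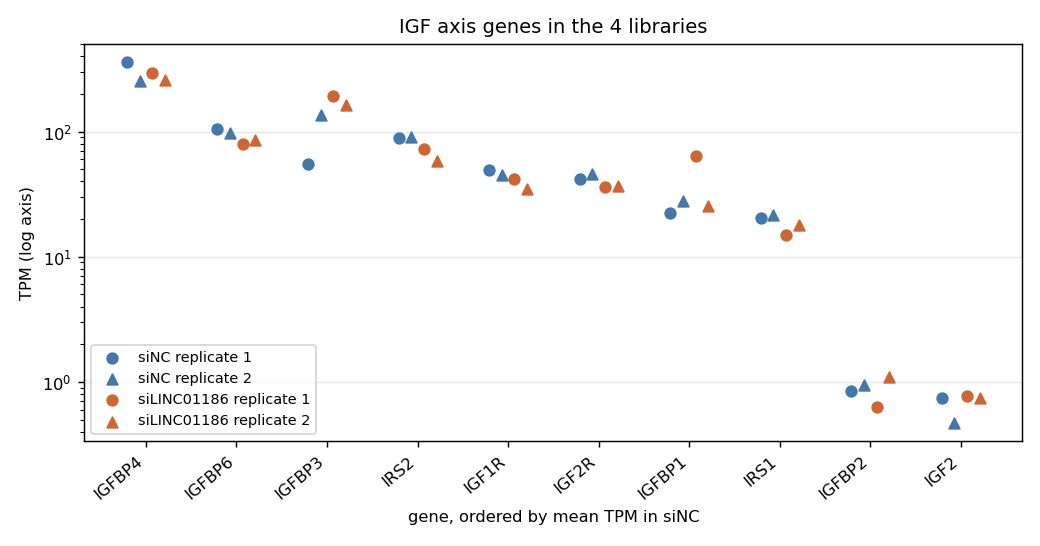
TPM (counts per gene length, scaled to the same total in each library, log axis) of the 10 IGF axis genes, ordered by their mean in siNC; each point is a library, blue for siNC, orange for siLINC01186, circles for replicate 1 and triangles for replicate 2. IGFBP4 is the highest in every library, IGFBP2 and IGF2 are the lowest, and the siNC libraries stand furthest apart for IGFBP3.

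IGFBP4 was the most abundant member in the siNC libraries, and IGF2, the only ligand among the members, had the lowest listed level, which is uncertain because the gene lies inside INS-IGF2. Levels of different genes are compared on the TPM scale, which divides by gene length. IGFBP4 stood at 306 ± 75.1 TPM (SD, n = 2) in siNC. It was followed by IGFBP6 at 100 ± 5.54 TPM and IGFBP3 at 94.8 ± 56.3 TPM. IRS2 at 88.8 ± 1.20 TPM came next. IGFBP3 could not be ordered against IGFBP6 or IRS2, because IGFBP3 had 54.9 TPM in siNC replicate 1 and 135 TPM in siNC replicate 2. IGF1R at 47.1 ± 2.93 TPM and IGF2R at 43.9 ± 2.76 TPM also overlapped. IGFBP1 at 25.2 ± 3.83 TPM and IRS1 at 21.1 ± 0.853 TPM did not overlap. IGFBP2 at 0.894 ± 0.0778 TPM and IGF2 at 0.606 ± 0.198 TPM were listed far below the others.

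Between the groups, IGFBP3 and IGFBP1 were the members called higher in the siLINC01186 libraries, and 0 members were called lower. A gene was called at a log2 fold change beyond 1 with an unadjusted p under 0.05, the limits stated in the study, from edgeR's quasi-likelihood test over 23942 genes. All 10 members passed the minimum of 5 counts summed over the libraries. At these limits 0.464% of all genes were called higher and 0.292% lower. After Benjamini-Hochberg adjustment of edgeR's test over all genes, 0 members and 0 of all genes had an adjusted p under 0.05, while 2 members and 289 genes had an unadjusted p under 0.05. DESeq2's Wald test gave 0 members and 1 gene with an adjusted p under 0.05. Testing every gene with any count gave 1 member, IGFBP3 (adjusted p = 0.00638, edgeR's quasi-likelihood test), and 5 genes. In that fit IGFBP3 had an SE of 0.22, as had IGFBP6 and IRS1, whose libraries lay closer together. That p-value thus takes little account of the spread between the IGFBP3 libraries. The median log2 fold change of the members was -0.03, beside 0.00 for all genes tested.

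IGFBP3, the main carrier of IGFs in blood and a protein with pro-apoptotic functions, was higher in both siLINC01186 libraries than in either siNC library. In siNC replicates 1 and 2 there were 1116 and 2602 counts, or 66.6 and 161 CPM. In siLINC01186 replicates 1 and 2 it had 4010 and 3671 counts, or 281 and 207 CPM. The groups did not overlap, but the siNC libraries lay further apart from each other on the log2 CPM scale (1.27) than the siLINC01186 libraries did (0.44 lower in replicate 2). The log2 fold change came to 1.10 ± 0.36 (SE, unadjusted p = 0.0150, adjusted p = 1.00, edgeR's quasi-likelihood test). Without siNC replicate 1 it was 0.60 and without siLINC01186 replicate 1 it was 0.86, so the call was lost without either library. Without siNC replicate 2 it was 1.87, and without siLINC01186 replicate 2 it was 1.30. Within replicate 1, IGFBP3 in siLINC01186 stood at 4.21 times siNC (95% exact interval 3.94 to 4.51). Within replicate 2 it stood at 1.28 times siNC (1.22 to 1.35). These intervals cover counting error only and compare 2 libraries, and the difference between the replicates was not tested.

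Part of the promoter of IGFBP3 is shown, because the study measured SALIS and STAT5A at this promoter. The RefSeq window on GRCh38.p14 is chr7:45921223-45921522 on the minus strand, 300 bases from upstream of the start site to just after it. The capitals mark the forward primer with which the study amplified this promoter after pulling down SALIS RNA. The primer covers bases 244 to 263 of the window, and the start site is base 251. Its reverse partner, and both primers with which the study measured STAT5A at IGFBP3, were not found in the window.

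IGFBP3 promoter: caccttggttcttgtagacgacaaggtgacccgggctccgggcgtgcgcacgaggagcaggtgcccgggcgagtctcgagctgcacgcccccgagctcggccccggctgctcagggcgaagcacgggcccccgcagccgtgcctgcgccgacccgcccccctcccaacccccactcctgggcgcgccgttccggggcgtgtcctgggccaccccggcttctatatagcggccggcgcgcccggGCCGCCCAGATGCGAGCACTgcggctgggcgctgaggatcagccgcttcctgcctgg

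A STAT recognition sequence, TTCNNNGAA, was not found in this window on either strand, and neither was the wider form TTCNNNNGAA. RefSeq windows were found for 8 of the 10 members, 10 windows in all. TTCNNNGAA was in 0 of these windows and in 7.66% of all 35116 windows. TTCNNNNGAA was in 6.44% of all windows and in the windows of IGFBP4 and IGFBP6. The letters alone say nothing about binding, and regions outside these windows were not searched. The stretch where the study measured STAT5A was not located.

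IGFBP1, which is made by liver cells and falls when insulin is present, was high in a single library. In siNC replicates 1 and 2 there were 286 and 338 counts, or 17.1 and 20.9 CPM. It had 833 counts (58.3 CPM) in siLINC01186 replicate 1 and 359 counts (20.2 CPM) in siLINC01186 replicate 2. siLINC01186 replicate 2 thus lay inside the siNC range. The log2 fold change came to 1.04 ± 0.41 (SE, unadjusted p = 0.0333, adjusted p = 1.00, edgeR's quasi-likelihood test). Without siLINC01186 replicate 1 it was 0.09 (unadjusted p = 0.767), and without siNC replicate 1 it was 0.90. Without siLINC01186 replicate 2 it was 1.61. The call was also lost with edgeR's filter on expression, where the unadjusted p was 0.0537. It was lost too when the replicate number was fitted as a block, with a log2 fold change of 0.88. Within replicate 1, siLINC01186 stood at 3.41 times siNC (95% exact interval 2.98 to 3.92, counting error only), and within replicate 2 at 0.965 times (0.829 to 1.12).

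IGFBP1 and IGFBP3 are neighbours. In the positions of the deposited tables, for which the submitters' processing notes name the build hg19, IGFBP1 lies on the plus strand of chromosome 7 from 45927959 to 45933267. IGFBP3 lies on the minus strand from 45951844 to 45960871, with 18576 bases and 0 other listed genes between them. The nearest genes with at least 5 counts in all were chosen after their values were seen. LOC730234, on the IGFBP1 side at a distance of 72970 bases, had 126 and 106 counts in siNC and 120 and 145 in siLINC01186. SEPT7P2, further out on that side, had 188 and 183 counts in siNC and 188 and 225 in siLINC01186. On the IGFBP3 side, the nearest was a lincRNA at 48384 bases with 0 to 4 counts per library. LOC730234 and SEPT7P2 showed no difference like that of IGFBP1 in replicate 1. The lincRNA had too few counts for such a difference to be seen. The other members lie on other chromosomes. On the plus strand are IGFBP2 (chromosome 2, 217497551 to 217529159), IGFBP4 (chromosome 17, 38599676 to 38613982), IGFBP6 (chromosome 12, 53491436 to 53496128), IGF1R (chromosome 15, 99191768 to 99507759) and IGF2R (chromosome 6, 160390131 to 160532536). On the minus strand are IRS1 (chromosome 2, 227596033 to 227663506), IRS2 (chromosome 13, 110406184 to 110438914) and IGF2.

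**Figure D2:**
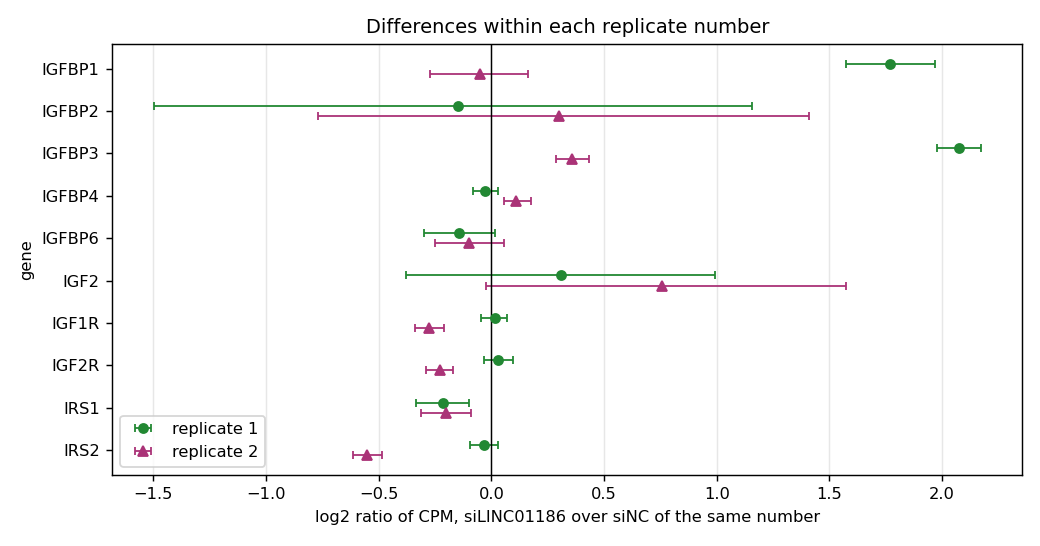
Log2 ratio of CPM in siLINC01186 over siNC of the same replicate number for each member (x axis); green circles are replicate 1, purple triangles replicate 2, and bars are 95% exact intervals for counting error only. IGFBP1 and IGFBP3 lie at 1.77 and 2.07 in replicate 1 and at -0.05 and 0.36 in replicate 2, and IRS2 lies at -0.03 in replicate 1 and -0.55 in replicate 2.

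IGFBP4, IGFBP6 and IGFBP2 were not called. IGFBP4, which binds IGFs and is cut by the protease PAPPA, had 6204 and 4162 counts in siNC and 5184 and 4950 in siLINC01186. In both groups replicate 1 was higher than replicate 2, at 370 against 258 CPM in siNC and 363 against 279 CPM in siLINC01186, so it followed the replicate number more than the siRNA. Its log2 fold change came to 0.03 ± 0.23 (SE). IGFBP6, a binding protein that prefers IGF2, had 46.4 and 42.4 CPM in siNC and 42.1 and 39.7 CPM in siLINC01186. The groups did not overlap, but the gap between them was smaller than the spread within either, and the log2 fold change came to -0.12 ± 0.18 (SE). IGFBP2 had only 10 to 19 counts per library. Its log2 fold change came to 0.12 ± 0.54 (SE), and a change of it was not detectable at this depth.

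IGFBP3 took a larger share of the IGFBP transcripts in both siLINC01186 libraries than in either siNC library, a comparison given with no test. Shares were taken of the summed TPM of IGFBP1 to IGFBP7, which was 832 and 846 in siNC and 870 and 756 in siLINC01186. IGFBP3 made up 6.60% and 15.9% of the sum in siNC and 22.3% and 21.5% in siLINC01186. IGFBP4 held the largest share in 3 libraries, from 33.9% to 43.2%, and came after IGFBP7 in siNC replicate 2, with 29.9% and 39.3%. Their order in siNC depended on dividing by gene length. The mean siNC shares of IGFBP4 and IGFBP7 were 36.6% and 37.1% by TPM, and 46.2% and 27.6% by counts not divided by length. IGFBP1 made up 7.39% in siLINC01186 replicate 1 and 2.70% to 3.35% in the other libraries. IGFBP2 and IGFBP5 each made up at most 0.146%.

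**Figure D3:**
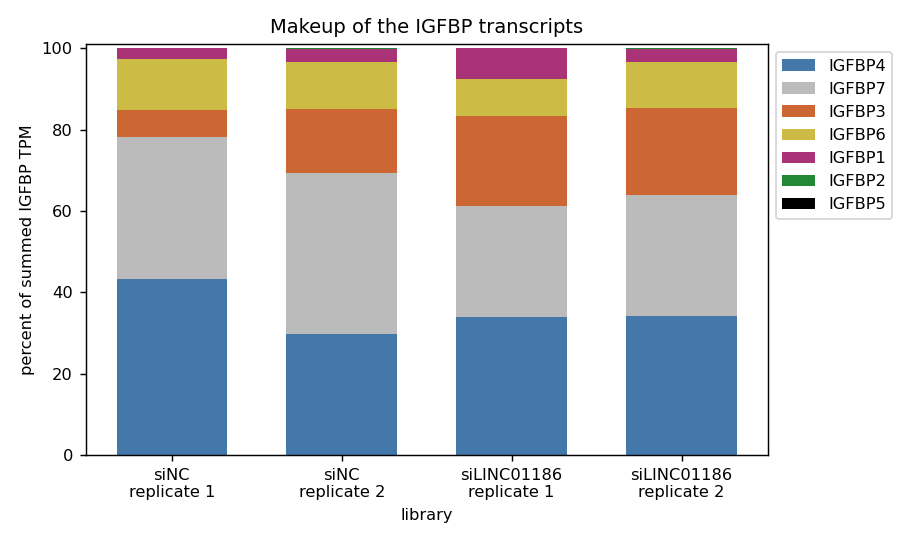
Percent of the summed TPM of IGFBP1 to IGFBP7 that each gene holds (y axis) in each library (x axis). The IGFBP3 segment holds 6.60% and 15.9% in siNC and 22.3% and 21.5% in siLINC01186, and the IGFBP1 segment is widest, at 7.39%, in siLINC01186 replicate 1.

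The ligand IGF2, a fetal growth factor, had low listed counts. It had 37 and 22 counts in siNC and 39 and 41 in siLINC01186, or 2.21 and 1.36 CPM against 2.73 and 2.31 CPM. Both siLINC01186 libraries were above both siNC libraries. The log2 fold change came to 0.49 ± 0.43 (SE), less than the error allows to be told from 0 (unadjusted p = 0.284). IGF2 lies on chromosome 11 from 2150342 to 2170833, wholly inside the readthrough gene INS-IGF2, which had 32 and 19 counts in siNC and 36 and 33 in siLINC01186. How reads were divided between them is not stated, so the count of either is uncertain and does not give the level of transcription. H19, the noncoding RNA next to IGF2 that is expressed from the other parental copy, had 578 and 795 CPM in siNC and 621 and 519 CPM in siLINC01186, so the groups overlapped.

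The receptors IGF1R and IGF2R were close to siNC in replicate 1 and lower than siNC in replicate 2. IGF1R had 277 and 251 CPM in siNC and 280 and 207 CPM in siLINC01186. Within replicate 1 its ratio was 1.01 (95% exact interval 0.968 to 1.05) and within replicate 2 it was 0.826 (0.790 to 0.864), for counting error only. IGF2R had 272 and 293 CPM in siNC and 278 and 251 CPM in siLINC01186. Its ratios were 1.02 (0.979 to 1.07) and 0.854 (0.819 to 0.889). In both genes the siLINC01186 libraries lay on either side of at least 1 siNC library. The log2 fold changes over all libraries were -0.12 and -0.10 with standard errors of 0.21 and 0.18, and neither was called. On the TPM scale, the level of IGF1R exceeded that of the insulin receptor INSR 3.52 and 2.34 times in siNC and 3.33 and 1.65 times in siLINC01186, lower in replicate 2 in both groups.

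The substrates IRS1 and IRS2 were lower in both siLINC01186 libraries without being called. IRS1 had 82.6 and 86.4 CPM in siNC and 71.2 and 75.2 CPM in siLINC01186. The ratio was alike in the replicates, 0.861 (95% exact interval 0.794 to 0.935) and 0.870 (0.806 to 0.938), for counting error only. The log2 fold change came to -0.21 ± 0.18 (SE, unadjusted p = 0.272, edgeR's quasi-likelihood test). IRS2, whose transcription is turned off by insulin in liver, had 284 and 286 CPM in siNC and 277 and 195 CPM in siLINC01186. Its ratio was 0.977 (0.936 to 1.02) in replicate 1 and 0.683 (0.653 to 0.714) in replicate 2, so the lower value came from siLINC01186 replicate 2. For IRS2 the log2 fold change was -0.27 ± 0.21 (SE, unadjusted p = 0.237), and it ranged from -0.55 without siLINC01186 replicate 1 (unadjusted p = 0.0491) to -0.04 without siLINC01186 replicate 2.

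Counted by overlap, 5 of the 10 members had both siLINC01186 libraries above or below both siNC libraries, 2 of them higher (IGFBP3, IGF2) and 3 lower (IGFBP6, IRS1, IRS2). Of all genes tested, 26.0% had groups that did not overlap. With plain library totals IGFBP1 joined them, and on the TPM scale IGF2 left and IGF1R and IGF2R joined. The TPM scale also counts a microRNA gene, MIR6087, which took 1.16% and 1.91% of the TPM in siNC and 13.8% and 8.69% in siLINC01186, so TPM values of other genes are lowered there.

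**Figure D4:**
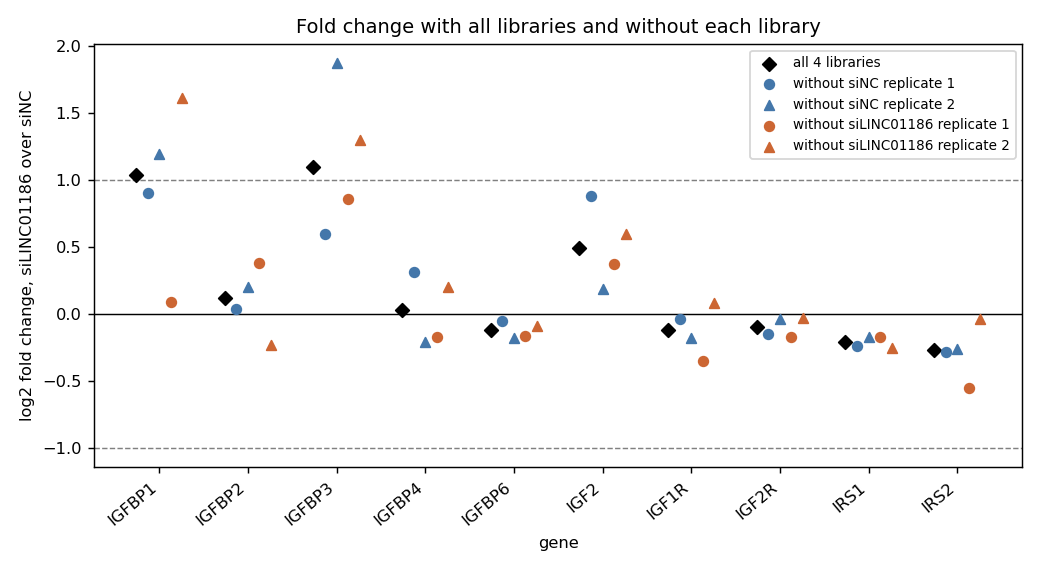
Log2 fold change of siLINC01186 over siNC from edgeR for each member (x axis), with all 4 libraries (black diamonds) and without each library in turn (blue and orange points); dashed lines mark a log2 fold change of 1 and -1. IGFBP1 lies at 1.04 with all libraries and at 0.09 without siLINC01186 replicate 1, and IGFBP3 ranges from 0.60 to 1.87.

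Other genes of the pathway were counted in 7 lists. Of these genes, 0 were called in either direction or had an unadjusted p under 0.05 (edgeR's quasi-likelihood test). Of all genes tested, 0.464% were called higher and 0.292% lower, and 289 of 23942 had an unadjusted p under 0.05. At such rates few or no calls would fall in lists of this size. The median log2 fold change was -0.17 for the 5 tested of 6 ligands and binding partners, and -0.05 for the 6 IGFBP proteases and inhibitors. The first median is the value of IGF1, which had few counts and an SE of 0.77, so it says little about that list. Among ligands and binding partners, IGFBP7, a low-affinity relative of the IGFBPs, had 2951 and 3218 counts in siNC and 2447 and 2535 in siLINC01186, a log2 fold change of -0.26 ± 0.19 (SE). IGF1 had 4 to 13 counts per library, IGFBP5 had 1 to 3, and insulin (INS) had 0 in all. IGFALS, the acid-labile subunit that forms the circulating complex with IGFBP3, had 56 and 36 counts in siNC and 56 and 25 in siLINC01186. Among the proteases and inhibitors the smallest p was that of STC1, stanniocalcin 1, an inhibitor of PAPPA. STC1 had 6 counts in siNC replicate 1, against 67 in siNC replicate 2 and 72 and 97 in siLINC01186. Like IGFBP3 it was lowest in siNC replicate 1, and its log2 fold change came to 1.22 ± 0.76 (SE). STC2 had 2193 and 1676 counts in siNC and 2119 and 1398 in siLINC01186.

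Of the 12 receptors and receptor adaptors, 11 were tested and their median log2 fold change was -0.09. The smallest p was that of SOS1, an exchange factor that activates RAS, with a log2 fold change of -0.32 ± 0.18 (SE). In the relay from PI3K through AKT to the FOXO factors, 17 of 21 genes had a log2 fold change below 0, as had 49.2% of all genes tested, with a median of -0.08 and a range from -0.49 to 0.20. The summed level of this list was 2070 and 2031 CPM in siNC and 2077 and 1892 CPM in siLINC01186. RICTOR and FOXO1 had log2 fold changes of -0.32 each. Of 9 liver genes that insulin represses through FOXO, PCK1, which encodes the gluconeogenic enzyme PEPCK, had 20 and 27 counts in replicate 1 of siNC and siLINC01186 and 208 and 159 in replicate 2. It followed the replicate number, as the hepatocyte markers did. The median of the 8 tested was -0.07, and PDK4, a kinase that restrains pyruvate oxidation, had the smallest p, with a log2 fold change of -0.35 ± 0.25 (SE).

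The 6 genes of the relay from growth hormone to STAT5 had a median of -0.05. STAT5A had 132 CPM in both siNC libraries and 116 and 122 CPM in siLINC01186. Its log2 fold change came to -0.14 ± 0.18 (SE). The growth hormone receptor GHR had 0 to 2 counts per library. SOCS2, a STAT5 target that restrains the receptor, had 207 and 170 counts in siNC and 140 and 115 in siLINC01186, a log2 fold change of -0.50 ± 0.29 (SE). Among 8 tested of 9 genes of the IGF2 locus and regulators of its mRNA the median was -0.12, and H19 had the smallest p, with a log2 fold change of -0.27 ± 0.22 (SE).

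Genes whose pattern over the 4 libraries was most like that of IGFBP3 were sought among 6410 genes with a mean log2 CPM above 5. Likeness was the largest difference, in any library, between log2 CPM profiles centred on their mean. The 5 nearest were LOC728688, CA9, BNIP3, NDRG1 and NUPR1, at 0.52, 0.53, 0.61, 0.62 and 0.71. CA9, a carbonic anhydrase, had 277 and 1353 counts in siNC and 1285 and 1490 in siLINC01186. NDRG1 had 3297 and 11955 counts in siNC and 8395 and 10405 in siLINC01186. All 5 were lowest in siNC replicate 1, as was IGFBP3, which follows largely from how they were chosen. In BNIP3 and NDRG1 the siNC replicate 2 level was above both siLINC01186 levels, which was not so for IGFBP3.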

How the data were processed

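RNA-seq of 4 libraries labelled HepG2 was used, 2 siNC and 2 siLINC01186, grouped by their titles. The authors deposited raw counts per gene and TPM values, which equal counts over the listed gene length scaled per library (largest difference 2.91e-05 TPM). The submitters' processing notes list hg19, HISAT2, HISAT, TopHat2 and Bowtie2. Poly(A) RNA was selected with oligo-dT, and the counting program, annotation, strand setting and test are not given in the sources used here.

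Requiring 5 counts or more in all 4 libraries combined left 23942 genes, which were scaled by TMM and compared with the quasi-likelihood test of edgeR 4.0.16 in R 4.3.3, without a block, with Benjamini-Hochberg adjustment over all genes. Standard errors come from the log2 fold change and F. CPM uses the TMM-scaled library size, with a prior count of 2 in log2 CPM profiles. Ratios within a replicate number have exact conditional 95% intervals for counting error only, and the floor is 3 counts. Totals of 14968958 to 17297245 counts set the precision. Alternatives were DESeq2 1.42.0 (size factors, Wald test), plain totals, edgeR's expression filter, any count, a replicate block, and each library left out.

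All 10 members are named, with up to 5 called genes or the 1 or 2 smallest p of each other list and the 5 genes most like IGFBP3. PCK1, STC2, H19, INSR, GHR and marker genes were named after their values were seen. Members and lists were chosen with earlier results of these data known. The sequence around 1 site in a 3′UTR is not reported here.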

Additional observations from a re-analysis of the deposited data

How the results depend on the processing

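Of the 10 members, 2 were called, and this count was unchanged with DESeq2's size factors, plain library totals, any count as the filter, and DESeq2's Wald test. It was 1 with edgeR's expression filter, where IGFBP1 was lost, and 0 to 2 when each library was left out. The 181 genes called among all were 46 with the expression filter, which tests fewer genes, and 27 with DESeq2's Wald test, and ranged from 248 to 375 without each library. A fit without a library leaves 1 sample in a group, which is assumed to vary like the other group. The log2 fold change ranged over these fits from 0.60 to 1.87 for IGFBP3, from 0.09 to 1.61 for IGFBP1, from -0.23 to 0.38 for IGFBP2, from -0.21 to 0.31 for IGFBP4, from -0.35 to 0.08 for IGF1R from -0.55 to -0.04 for IRS2 and from 0.19 to 0.88 for IGF2. The cause was not tested. Over all members and alternatives, 90 log2 fold changes kept their direction and side of the limits, 6 no longer passed them and 4 reversed. With any count as the filter, 1 member, IGFBP3, had an adjusted p under 0.05 (0.00638, edgeR's test). Its SE in that fit was 0.22, as for IGFBP6 and IRS1, so this p-value takes little account of the spread between the IGFBP3 libraries.

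The labels give both groups the replicate numbers 1 and 2. Same-numbered libraries deviated together from their group means, with a correlation of 0.563 across 16848 genes, which are not independent replicates, and 2 pairs do not establish a pairing. With the replicate block, 1 member, IGFBP3, was called, at 1.20 on the log2 scale (adjusted p = 1.73e-22), and IGFBP1 stood at 0.88 (adjusted p = 3.67e-06, edgeR's test). In that fit every gene was given the spread of the trend over all genes, so these p-values take no account of the disagreement between the pairs, 2.07 and 0.36 for IGFBP3 and 1.77 and -0.05 for IGFBP1. That block fit called 220 genes in all, and 278 genes had an adjusted p under 0.05. Fewer than 20 counts limit IGFBP2 in each library, and the levels of IGF2, at most 41 counts, are limited likewise.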

Other observations

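The oligos against SALIS can pair through bases 2 to 8 with transcripts other than their target, and the 3′UTRs of the members were searched for such sites as a description. Both oligos of the study are shown in both strands, since the labels do not name the oligo in each library. The sequence of siSALIS_02 occurs in the annotated SALIS transcript, at position 227, while siSALIS_01 as printed was not found there. Capitals mark bases 2 to 8.

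siSALIS_01 as printed: aGGGCTCTattgggcaaaaa
siSALIS_01, complement strand: tTTTTGCCcaatagagccct
siSALIS_02 as printed: cTAAGTGActcactgcatc
siSALIS_02, complement strand: gATGCAGTgagtcacttag

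Sites were counted in the longest 3′UTR of 14797 genes in GENCODE release 29. For siSALIS_01, AGAGCCC, which pairs with the printed strand, was in 13.1% of genes and in 3 of the 10 members, IGFBP4, IGF1R and IGF2R. GGCAAAA, which pairs with its complement, was in 14.0% of genes and in 3 members, IGF2, IGF2R and IRS1. For siSALIS_02, TCACTTA was in 12.1% of genes and ACTGCAT in 13.5%, and each was in 1 member, IGF2R. IGF2R was the member that held all 4 sites, of which 3 are shown here in capitals with 9 bases on either side, and its 3′UTR of 6420 bases is the longest of the members after that of IGF1R, with 7088.

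IGF2R, position 2244: aagctggatGGCAAAAaggcatgtt
IGF2R, position 5760: cagatgatcTCACTTAtatgtggaa
IGF2R, position 1030: cttacagaaACTGCATgaaaaatca

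Within replicates 1 and 2, the CPM level of IGF2R in siLINC01186 stood at 1.02 and 0.854 times siNC. The other members with a site were IGFBP4 at 0.98 and 1.08 times, IGF1R at 1.01 and 0.826, IGF2 at 1.24 and 1.69, and IRS1 at 0.861 and 0.870. Of the members that held 0 of the 4 sites, IRS2 stood at 0.977 and 0.683 times siNC. IGFBP1 stood at 3.41 and 0.965 times and IGFBP3 at 4.21 and 1.28 times. IGFBP6 stood at 0.906 and 0.935 times and IGFBP2 at 0.902 and 1.23 times. A part of these sites in the values was not tested.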
